A study of Mus musculus with 6 samples.

Results

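Pericentral WNT target genes were described in liver RNA of mice on a high-fat diet (HFD), with and without allantoin, as a read of liver zonation. The set holds 10 genes that were listed by symbol: the secreted WNT amplifier Rspo3, its receptor Lgr5, the feedback regulators Rnf43, Znrf3 and Axin2, the transcription factor Tbx3, the nitrogen-handling genes Glul, Slc1a2 and Rhbg, and the secreted protein gene Lect2. All 10 were found among the 54532 Ensembl entries of the count table and all 10 were among the 12795 genes with enough counts to be tested. The rule names them by symbol and uses no measured value, but the members were chosen with earlier results of these data known.

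The libraries came from whole liver of wild-type male C57BL/6J mice, 3 in the HFD group (replicates 1 to 3) and 3 in the HFD+allantoin group (replicates 4 to 6). All mice were 8 weeks old when the diet began by the study's methods, while the labels speak of 4 weeks of age, and all ate HFD for 4 weeks and then for another 4 weeks. During the last 4 weeks the HFD+allantoin group drank water with allantoin, the product of uric acid oxidation, at 0.3 mg/mL. The labels name this dose and a lower one without tying either to a library, so the dose follows the study's methods, and no library of mice on a normal diet was analysed here.

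In the liver lobule, blood enters at the portal triad and leaves at the central vein, and hepatocytes along this path do different work. Endothelial cells of the central vein and the nearby sinusoids secrete WNT ligands and R-spondin 3, and hepatocytes around the vein answer through Frizzled and LRP receptors, β-catenin and TCF/LEF factors. The pericentral program that follows includes glutamine synthesis, bile acid synthesis and much cytochrome P450 activity, while urea synthesis and gluconeogenesis are stronger at the portal end. Negative regulators such as Axin2, Rnf43 and Znrf3 are themselves WNT targets, so that their transcripts are often used to read the activity of the pathway.

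The upstream DNA of 3 members is shown because WNT targets are often bound through the TCF/LEF core, of which the letters CTTTGAT and CTTTGAA were searched on both strands. RefSeq promoter windows (GRCm38.p6, 250 bases before to 50 bases after a transcript start) were at hand for 5 of the 10 members, Axin2, Glul, Lect2, Rnf43 (2 windows) and Slc1a2. The bases before the start are printed 5′ to 3′ on the strand of the gene, with a core in capitals, for the 2 genes that hold one and for Axin2, the standard WNT reporter gene, whose window holds none. Slc1a2 lies on the plus strand (chr2:102706188-102706437, upstream of a transcript start inside the GENCODE gene), Lect2 on the minus strand (chr13:56548539-56548788) and Axin2 on the plus strand (chr11:108920099-108920348).
Slc1a2: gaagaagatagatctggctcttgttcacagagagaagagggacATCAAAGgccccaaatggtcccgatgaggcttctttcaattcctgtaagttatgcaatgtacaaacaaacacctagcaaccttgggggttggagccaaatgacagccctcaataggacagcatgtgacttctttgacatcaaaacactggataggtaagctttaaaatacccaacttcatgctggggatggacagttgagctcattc
Lect2: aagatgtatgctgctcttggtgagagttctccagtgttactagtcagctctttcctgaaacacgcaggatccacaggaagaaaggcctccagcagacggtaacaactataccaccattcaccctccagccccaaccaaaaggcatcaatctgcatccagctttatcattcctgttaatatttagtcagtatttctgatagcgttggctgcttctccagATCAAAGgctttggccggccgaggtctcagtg
Axin2: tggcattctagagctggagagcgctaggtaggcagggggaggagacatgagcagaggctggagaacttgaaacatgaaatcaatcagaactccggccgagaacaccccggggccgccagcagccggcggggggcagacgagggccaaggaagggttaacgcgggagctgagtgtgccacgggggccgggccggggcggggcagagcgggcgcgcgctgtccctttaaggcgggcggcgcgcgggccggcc
Both cores read CTTTGAT on the strand opposite to the gene, with the first base at -207 from the start in Slc1a2 and at -32 in Lect2. A core was thus found in 2 of 6 member windows, and 8.65% of all 32851 RefSeq windows hold one (3.73% hold CTTTGAT and 5.14% hold CTTTGAA). The windows also differ in base composition, with a GC content of 70.0% in Axin2 and 64.3% in Glul, and of 48.0% in Lect2, 46.7% and 44.3% in Rnf43 and 45.7% in Slc1a2, against a median of 52.7% over all windows. These matches describe letters only, and no binding was measured.

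Libraries held 11326372 to 14601457 counts. Hepatocyte markers were abundant in every library, with a summed level of 95644 to 98630 CPM (counts scaled to a common library size) in HFD and 77786 to 107820 CPM in HFD+allantoin, most of it Alb. Of the 8 markers, 1 was called higher and 4 lower, and the median of their log2 fold changes was -0.69. The mitochondrial chromosome took 17.9% to 36.5% of the counts in HFD and 6.92% to 11.4% in HFD+allantoin, with the highest share in HFD replicate 1, and its part in the results was not tested beyond the fits without it. Summed stellate cell markers were 235 to 382 CPM in HFD and 494 to 576 CPM in HFD+allantoin (7 of 11 tested were called higher), and macrophage markers 172 to 405 and 428 to 469 CPM (3 of 11 called higher). Beside these marker counts, 11.3% of all tested genes were called higher and 13.0% lower. HFD replicate 2 stood apart in adipocyte markers, at 510 CPM against 38.5 to 92.1 CPM in the other libraries, and HFD replicate 3 in cholangiocyte markers, at 159 CPM against 21.9 to 76.8 CPM. Red cell markers summed to 332 CPM in HFD replicate 3 and to 876 to 1333 CPM in the other libraries. In whole tissue, fewer cells of a type and less RNA per cell cannot be told apart.

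None of the 10 members passed an adjusted p of 0.05 in either direction in edgeR's quasi-likelihood test, whereas 11.3% of all tested genes were called higher and 13.0% lower in HFD+allantoin. An unadjusted p under 0.05 was reached by 3 members, Rnf43, Rspo3 and Slc1a2, and by 4999 of all 12795 tested genes. The fitted log2 fold changes (log2FC, as HFD+allantoin over HFD throughout) ran from -0.20 for Lect2 to 1.10 for Rnf43 with a median of 0.38, against -0.03 over all tested genes. They were above 0 in 8 members and below 0 in Lgr5 and Lect2, where 6170 of all 12795 tested genes were above 0. Over the alternative fits the members above 0 numbered from 6 (without HFD replicate 2) to 10 (library-size scaling). All 3 HFD+allantoin libraries lay above all 3 HFD libraries in 2 members, Rspo3 and Slc1a2, and below them in none, where 22.4% of all tested genes lay above and 21.9% below. The count above is close to that share, and 3 against 3 libraries cannot take an exact permutation test of 1 gene under a p of 0.1.

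**Figure D1:**
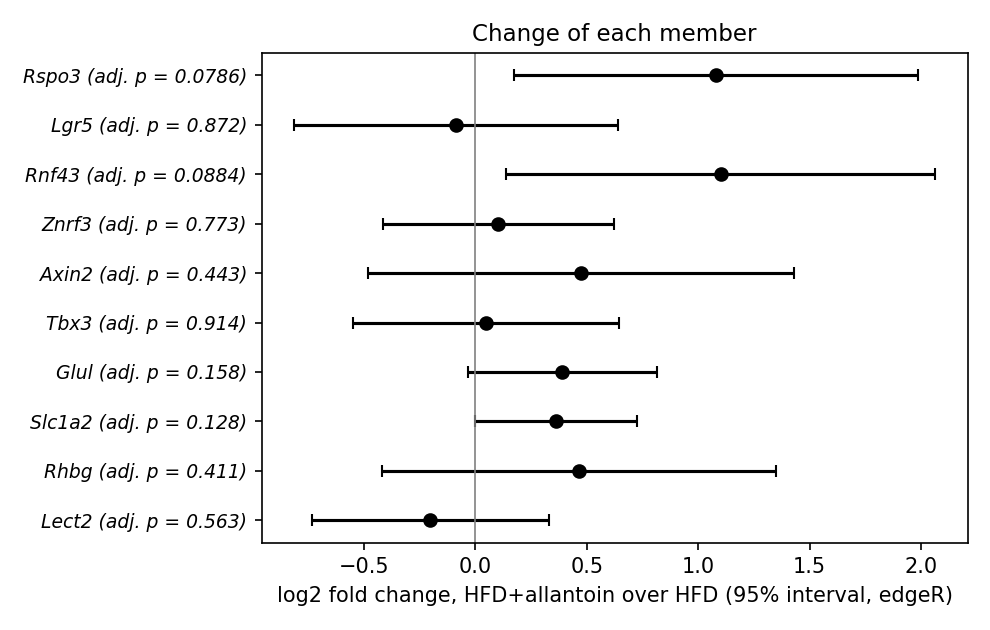
Fitted log2 fold change (HFD+allantoin over HFD, horizontal axis) of each of the 10 genes, with its 95% interval from edgeR, 3 libraries per group. The values run from -0.20 (Lect2) to 1.10 (Rnf43), and the intervals of Rspo3, Rnf43 and Slc1a2 begin above 0, while none has an adjusted p under 0.05.

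Rspo3 encodes R-spondin 3, a ligand that binds LGR receptors and keeps RNF43 and ZNRF3 from removing Frizzled receptors from the cell surface (ENSMUSG00000019880, chr10:29452416-29535867, minus strand, GRCm38). It held 17, 47 and 23 counts in the HFD libraries and 71, 117 and 84 counts in the HFD+allantoin libraries. Normalised, these were 1.86, 4.64 and 1.92 CPM in HFD and 5.21, 6.92 and 5.67 CPM in HFD+allantoin. All HFD+allantoin libraries lay above HFD, and HFD replicate 2 was close to them while the other two HFD libraries were lower. The means were 2.81 ± 1.59 CPM (SD, n = 3) and 5.93 ± 0.888 CPM (SD, n = 3), a fold of 2.11 with a 95% interval of 1.13 to 3.96. The log2FC of 1.08 (standard error, SE, 0.40) had an unadjusted p of 0.0244 and an adjusted p of 0.0786 in edgeR. Without HFD replicate 2 it was 1.65 with an adjusted p of 0.0153, which passes the threshold, while without HFD replicate 1 it was 0.87 (adjusted p = 0.165) and without HFD replicate 3 it was 0.86 (adjusted p = 0.142). Without single HFD+allantoin libraries the adjusted p was 0.143 to 0.231.

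Since Rspo3 is made by endothelial cells, stellate cells and other non-parenchymal cells rather than by hepatocytes, their markers stand beside it. The summed stellate cell markers did not overlap between groups, and per 100 CPM of them Rspo3 was at 0.568, 1.22 and 0.819 in HFD and at 1.05, 1.201 and 1.02 in HFD+allantoin. On this scale, added after seeing the data, the groups overlapped and the means were 0.868 ± 0.327 (SD, n = 3) and 1.09 ± 0.0979 (SD, n = 3). The 12 sinusoidal endothelial markers summed to 147 to 257 CPM in HFD and 215 to 319 CPM in HFD+allantoin, with 1 called higher, 2 lower and 9 not called. The central vein markers summed to 9.70 to 16.8 CPM and 14.2 to 17.9 CPM, with 1 of 5 tested called higher, and no marker of either endothelial list was at 0 in all libraries of a group. The 1 called was Wnt2, a WNT ligand that is also counted in the pathway list below. The median log2FC of the 5 tested central vein markers was -0.02. Per 100 CPM of the sinusoidal markers, Rspo3 was at 0.794, 1.81 and 1.31 in HFD and at 1.63, 2.96 and 2.64 in HFD+allantoin. On this scale replicate 4 fell below HFD replicate 2, so that the groups overlapped. The same held against Pecam1, a general endothelial gene, with ratios of 0.274, 0.435 and 0.390 in HFD and 0.327, 0.639 and 0.528 in HFD+allantoin. The part of cell composition in the level of Rspo3 was not tested.

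Lgr5 encodes the R-spondin receptor that marks hepatocytes closest to the central vein (ENSMUSG00000020140, chr10:115450311-115587780, minus strand). It was measured at 11.6, 7.51 and 8.28 CPM in HFD and at 5.94, 7.16 and 12.6 CPM in HFD+allantoin. The HFD+allantoin group held both the lowest and the highest of the 6 values, the highest being that of replicate 6. The log2FC was -0.09 (95% interval -0.81 to 0.64, adjusted p = 0.872, edgeR), and its sign turned with the library-size scaling and with any of 3 single libraries left out. The related receptor Lgr4, which hepatocytes express along the whole lobule, stood at 42.4 to 50.3 CPM in HFD and 45.2 to 50.5 CPM in HFD+allantoin. Per kilobase of exon, Lgr5 was at 0.112 ± 0.0197 (SD, n = 3) of the level of Lgr4 in HFD and at 0.104 ± 0.0491 (SD, n = 3) in HFD+allantoin.

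Rnf43 and Znrf3 encode membrane ubiquitin ligases that take Frizzled and LRP6 off the cell surface and so damp the signal. Rnf43 (ENSMUSG00000034177, chr11:87662722-87735539, plus strand) was at 23.3, 7.70 and 6.52 CPM in HFD and at 22.9, 28.5 and 28.4 CPM in HFD+allantoin. HFD replicates 2 and 3 were far below the HFD+allantoin libraries, and HFD replicate 1, the library with the most mitochondrial counts, was level with replicate 4. The means were 12.5 ± 9.34 CPM (SD, n = 3) and 26.6 ± 3.19 CPM (SD, n = 3), a fold of 2.15 with a 95% interval of 1.10 to 4.18. The log2FC of 1.10 (SE 0.43) had an unadjusted p of 0.0292 and an adjusted p of 0.0884 in edgeR. The call turned on single libraries: without HFD replicate 1 the log2FC was 1.90 with an adjusted p of 0.00387, while without HFD replicate 3 it was 0.79 with an adjusted p of 0.142. DESeq2 and limma-voom called Rnf43 higher with all 6 libraries (adjusted p = 0.0222 and 0.0275).

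Znrf3 (ENSMUSG00000041961, chr11:5276324-5444847, minus strand) was at 9.06, 8.0 and 11.8 CPM in HFD and at 9.16, 9.82 and 12.1 CPM in HFD+allantoin. The groups overlapped over nearly their whole range, with a log2FC of 0.10 (95% interval -0.41 to 0.62, adjusted p = 0.773, edgeR). Its interval leaves room for a fold of 0.750 to 1.54, so a moderate change of either sign was not detectable here. Per kilobase, the level of Rnf43 over that of Znrf3 was 3.09, 1.16 and 0.666 in HFD and 3.01, 3.49 and 2.83 in HFD+allantoin. The ratio was near 3 in the HFD+allantoin libraries and in HFD replicate 1, and lower in the other two HFD libraries.

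Axin2 encodes a scaffold of the β-catenin destruction complex and is the feedback target most often used to read the pathway (ENSMUSG00000000142, chr11:108920349-108950783, plus strand). It held 73, 38 and 28 counts in HFD and 104, 95 and 91 counts in HFD+allantoin. Normalised, these were 7.97, 3.75 and 2.34 CPM and 7.62, 5.62 and 6.14 CPM. As for Rnf43, HFD replicate 1 was the highest HFD library. For Axin2 it lay above every HFD+allantoin library, and the remaining HFD libraries lay below all of them. The log2FC was 0.47 (SE 0.42, 95% interval -0.48 to 1.43, adjusted p = 0.443, edgeR). Without HFD replicate 1 it was 1.09 with an adjusted p of 0.0532, and without HFD replicate 3 it was 0.15 with an adjusted p of 0.785.

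Tbx3 encodes a T-box transcription factor and β-catenin target of pericentral hepatocytes (ENSMUSG00000018604, chr5:119670669-119684724, plus strand). It was at 38.6, 19.7 and 20.9 CPM in HFD and at 25.6, 31.1 and 25.0 CPM in HFD+allantoin. The HFD group spanned the HFD+allantoin group on both sides, again with HFD replicate 1 at the top. The log2FC was 0.05 (95% interval -0.55 to 0.64, adjusted p = 0.914, edgeR). Its antisense neighbour Tbx3os1, which was singled out after its values were seen, shares 115 exon bases with it and held 219, 100 and 156 counts in HFD and 91, 101 and 86 counts in HFD+allantoin. Tbx3os1 was called lower, with a log2FC of -1.34 (SE 0.32, adjusted p = 0.0184, edgeR). Whether counting used strand is not given in the sources used here, so reads from the shared bases cannot be told apart.

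**Figure D2:**
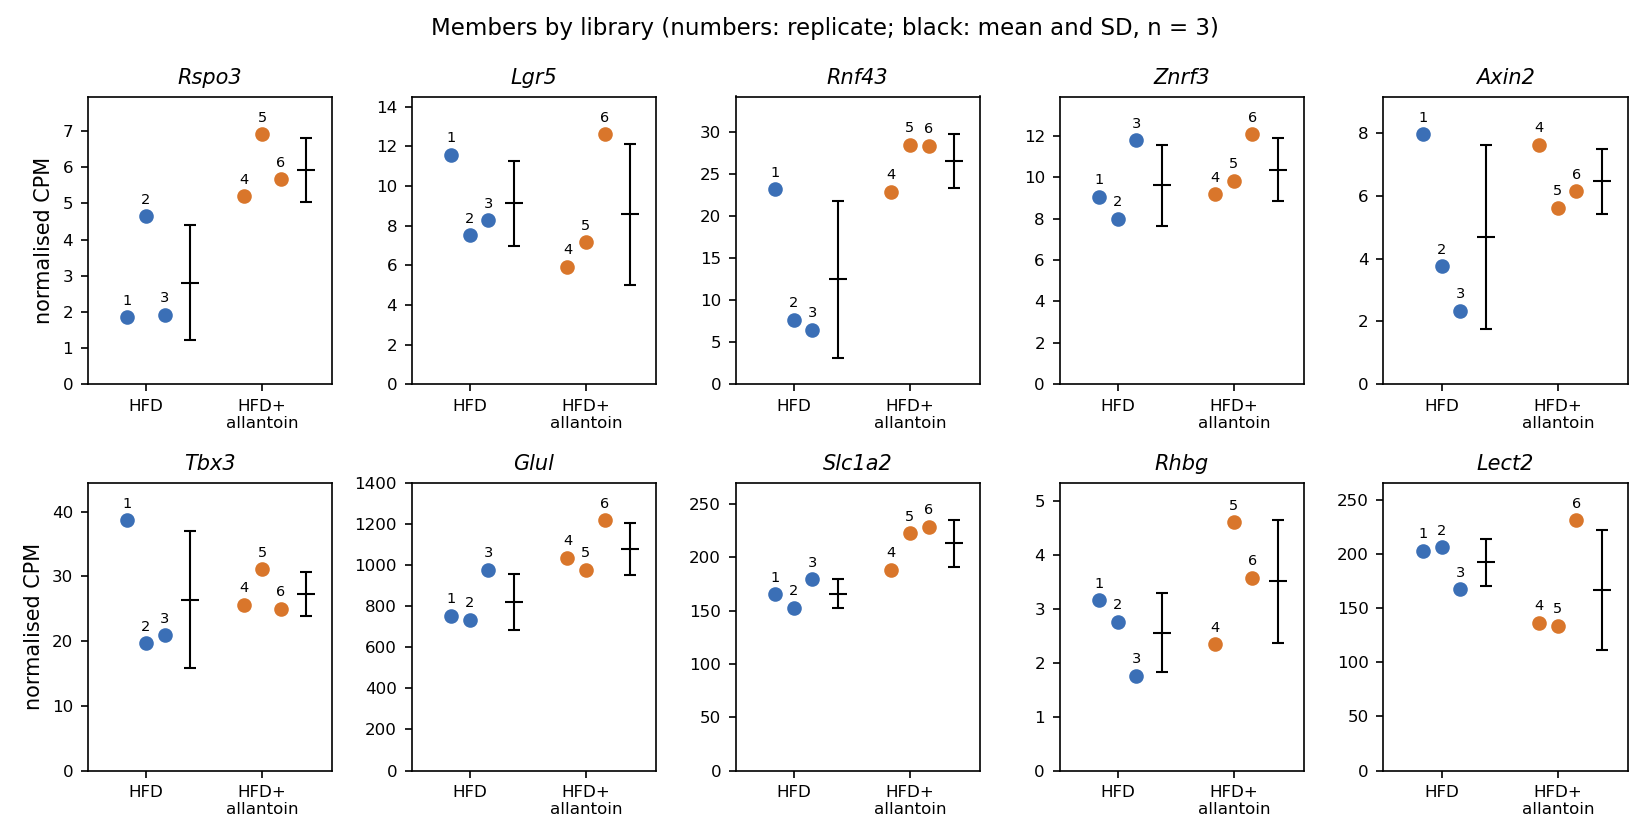
Normalised expression (CPM, vertical axis from 0, a scale of its own per gene) of the 10 genes in the 3 HFD and 3 HFD+allantoin libraries, 1 point per library numbered by replicate, with the group mean ± SD. The groups separate in Rspo3 and Slc1a2 and overlap in the other 8, and HFD replicate 1 is the highest HFD library in 5 genes (Axin2, Lgr5, Rnf43, Tbx3 and Rhbg).

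Glul encodes glutamine synthetase, which captures ammonia that escapes the urea cycle and normally marks the innermost ring of hepatocytes (ENSMUSG00000026473, chr1:153899944-153909723, plus strand). It was the most abundant member, at 753, 734 and 977 CPM in HFD and at 1035, 977 and 1218 CPM in HFD+allantoin. The groups met at HFD replicate 3 and HFD+allantoin replicate 5, whose values were nearly equal, and did not otherwise overlap. The means were 821 ± 135 CPM (SD, n = 3) and 1077 ± 126 CPM (SD, n = 3), a fold of 1.31 with a 95% interval of 0.976 to 1.76 (log2FC 0.39, adjusted p = 0.158, edgeR). The pseudogene Glns-ps1 is 96.8% identical to Glul over 1126 bases and held 1 to 16 counts per library, against 6897 to 18049 counts for Glul.

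Slc1a2 encodes a glutamate transporter that supplies pericentral hepatocytes with the substrate of glutamine synthetase (ENSMUSG00000005089, chr2:102658659-102790784, plus strand). It was at 165, 153 and 180 CPM in HFD and at 188, 223 and 229 CPM in HFD+allantoin. Every HFD+allantoin library was above every HFD library, by a narrow gap between HFD replicate 3 and replicate 4. The means of 166 ± 13.5 CPM (SD, n = 3) and 213 ± 21.7 CPM (SD, n = 3) gave a fold of 1.29 (95% interval 1.0 to 1.65), with an unadjusted p of 0.0499 and an adjusted p of 0.128 in edgeR. Slc1a2 had the smallest spread among HFD libraries of the 10 genes, with an SD of 8.11% of the mean, against 74.7% for Rnf43 and 62.5% for Axin2. Per kilobase, Glul stood at 19.5 ± 1.81 times Slc1a2 (SD, n = 3) in HFD and at 20.0 ± 2.35 times (SD, n = 3) in HFD+allantoin, a difference within the spread of either group. A fit that took out the dependence on the length and base composition of the longest transcript lowered the log2FC of Slc1a2 from 0.36 to 0.20.

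Rhbg encodes an ammonium transporter of pericentral hepatocytes (ENSMUSG00000104445, chr3:88242874-88254709, minus strand). It had few counts, 29, 28 and 21 in HFD and 32, 78 and 53 in HFD+allantoin, which came to 3.17, 2.77 and 1.76 CPM and 2.35, 4.61 and 3.58 CPM. Replicate 4 lay inside the HFD range and the other HFD+allantoin libraries above it. The log2FC was 0.47 (95% interval -0.42 to 1.35, adjusted p = 0.411, edgeR). The predicted gene Gm38392 shares 1190 exon bases with it on the same strand and was listed with 0 to 2 counts, so the split of reads between the 2 entries is uncertain.

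Lect2 encodes a secreted hepatokine whose transcript depends on β-catenin in mouse liver (ENSMUSG00000021539, chr13:56542464-56548502, minus strand). It was at 204, 207 and 168 CPM in HFD and at 137, 134 and 232 CPM in HFD+allantoin. Replicates 4 and 5 were below every HFD library and replicate 6 was above every one, which is also the library with the highest Lgr5 and Glul. The log2FC was -0.20 (95% interval -0.73 to 0.33, adjusted p = 0.563, edgeR), and it was above 0 under library-size scaling and with the length and GC trend removed.

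Between genes, levels were compared per kilobase of exon (CPM per kb). In HFD the order was Glul (247), Lect2 (210), Slc1a2 (12.6), Tbx3 (3.99), Rnf43 (1.90), Rhbg (1.32), Znrf3 (1.22), Rspo3 (0.908), Lgr5 (0.888) and Axin2 (0.851 CPM per kb). Of these neighbours only Lect2 and Slc1a2, and Slc1a2 and Tbx3, did not overlap between their 3 libraries. In HFD+allantoin the 5 highest came in the same order, and Rspo3 stood 6th, at 1.92 CPM per kb, after Rnf43 at 4.06 with no overlap between them. Lgr5 was last there, at 0.835 CPM per kb, and overlapped Axin2 at 1.17 CPM per kb. Against all tested genes, the mean level per kilobase was in percentile 98.7 for Glul and 98.1 for Lect2 and in percentiles 21.7 to 35.1 for Lgr5, Axin2, Znrf3, Rspo3 and Rhbg.

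Over the 15 alternative fits, no member was called lower, and the number called higher was between 0 and 4. Rnf43 was called in 5 of them, Rspo3 in 4, and Glul and Slc1a2 in 1 each, scaling by library size only. That scaling moved the median log2FC of all tested genes from -0.03 to 0.38 and that of the members from 0.38 to 0.78, so relative to all genes the members moved little.

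**Figure D3:**
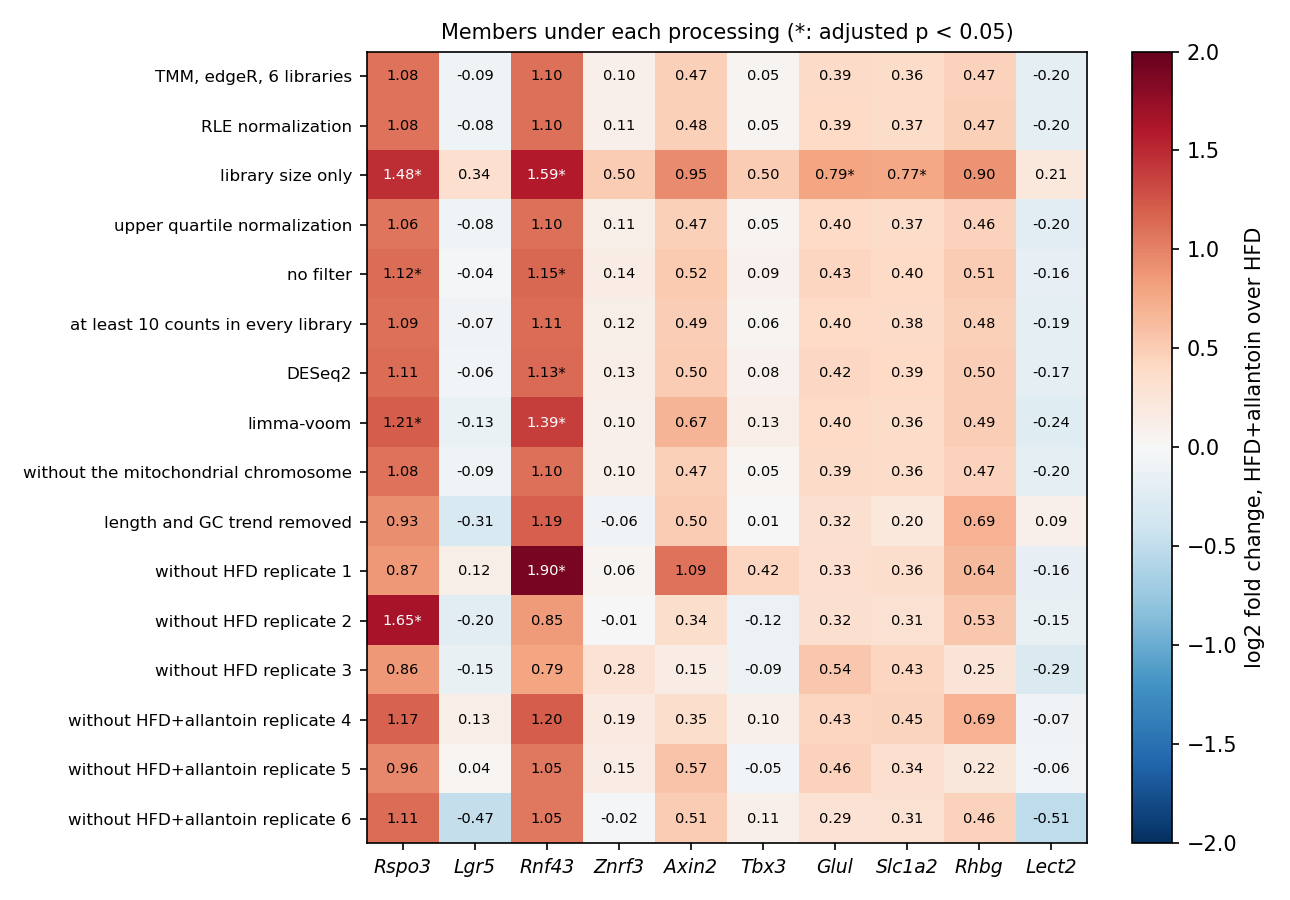
Log2 fold change (HFD+allantoin over HFD) of each of the 10 genes in the reported fit and 15 alternatives, with genes in columns and fits in rows, coloured by value, and an asterisk where the adjusted p is under 0.05. Rnf43, Rspo3, Axin2, Rhbg, Glul and Slc1a2 stay above 0 in every fit, while Lgr5, Znrf3, Tbx3 and Lect2 take both signs.

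The other genes of the WNT pathway were read from a list of 81, of which 55 were tested, 8 called higher and 5 lower, and their median log2FC was 0.13. These counts are close to the 11.3% and 13.0% called over all tested genes, so the calls by role describe single genes. The 26 genes not tested, mostly ligands, receptors and secreted inhibitors, had too few counts. The summed level of the 81 genes was 912 to 1100 CPM in HFD and 1104 to 1252 CPM in HFD+allantoin, a ratio of means of 1.115. Its exact two-sided permutation p was 0.1, the smallest that 3 against 3 can give. This p is descriptive only, since the list was chosen with earlier results of these data known. Library-size scaling gave 23 higher and 2 lower, so the split between directions depends on the scaling, and Tcf7l2, Dvl3 and Pygo2 were not called there. Without replicate 5 there were 4 higher and 3 lower, without replicate 4 there were 3 lower, and without HFD replicate 3 there were 10 lower.

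Among the ligands, 6 of 12 were tested and Wnt2, which central vein and sinusoidal endothelial cells make, was the 1 called higher. Wnt2 was at 0.655, 1.98 and 0.502 CPM in HFD and at 2.79, 4.50 and 3.64 CPM in HFD+allantoin. HFD replicate 2 was the highest HFD library, as for Rspo3, and the groups did not overlap. The log2FC was 1.81 (SE 0.53, adjusted p = 0.0387, edgeR), and the call was lost without any one of HFD replicates 1 and 3 and the HFD+allantoin libraries. Wnt9b, the other central vein ligand, was too low to be tested, at a mean of 0.802 ± 0.728 CPM (SD, n = 3) in HFD and 0.262 ± 0.0386 CPM (SD, n = 3) in HFD+allantoin. The ligand secretion genes (2 tested) and extracellular inhibitors (4 of 14 tested) held no call.

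Among receptors and co-receptors, 4 of 11 tested genes were called higher and none lower. Fzd7, a Frizzled receptor, was at 13.2, 8.0 and 5.52 CPM in HFD and at 24.3, 39.7 and 26.9 CPM in HFD+allantoin, a log2FC of 1.78 (SE 0.33, adjusted p = 0.00726, edgeR). Fzd8 rose by a log2FC of 1.11 (adjusted p = 0.00868), from 13.7 ± 1.62 to 29.4 ± 7.44 CPM (SD, n = 3 each). The co-receptor gene Lrp5 rose from 29.9 ± 4.85 to 53.5 ± 3.66 CPM (SD, n = 3 each), a log2FC of 0.84 (adjusted p = 0.0100). Fzd4, an endothelial Frizzled, was also called higher. The hepatocyte co-receptor gene Lrp6 had a log2FC of 0.42 and did not pass (adjusted p = 0.0878), and Lgr4 had one of 0.05 (adjusted p = 0.837).

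Among 16 cytoplasmic transducers, 1 was called higher and 2 lower. Ctnnb1, the gene of β-catenin, was at 35.5, 51.9 and 55.2 CPM in HFD and at 143, 147 and 148 CPM in HFD+allantoin. All HFD+allantoin libraries were close together and far above HFD, and the log2FC was 1.62 (SE 0.20, adjusted p = 0.00292, edgeR). β-catenin is regulated mainly by the stability of its protein, which was not measured in these libraries. The 2 called lower were Dishevelled genes, whose proteins relay the signal from Frizzled. Dvl1 fell from 93.6 ± 32.3 to 35.1 ± 0.581 CPM (SD, n = 3 each), a log2FC of -1.41 (adjusted p = 0.00555), and Dvl3 had a log2FC of -1.04 (adjusted p = 0.0148). Apc, a scaffold of the destruction complex, had a log2FC of -0.02 (adjusted p = 0.961).

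Among 12 nuclear factors, 1 was called higher and 3 lower. Tcf7l2, the main TCF factor gene of hepatocytes, was at 27.0, 17.5 and 23.8 CPM in HFD and at 10.4, 12.7 and 11 CPM in HFD+allantoin, a log2FC of -0.998 (SE 0.21, adjusted p = 0.0109, edgeR). The co-repressor gene Tle2 was at 20.4, 11.8 and 10.9 CPM in HFD and at 3.67, 3.85 and 3.44 CPM in HFD+allantoin, a log2FC of -1.97 (adjusted p = 0.00396). Neither gene overlapped between groups. Pygo2, a co-activator gene, was also called lower, and Ctnnbip1, whose protein keeps β-catenin from TCF factors, was called higher. Of the 15 alternatives, the call was lost in 4 for Ctnnbip1, 3 each for Pygo2 and Dvl3, 2 for Tcf7l2 and 1 each for Lrp5 and Fzd4. Among 4 other target genes tested, Ccnd1 (cyclin D1, a cell cycle regulator) was the 1 called, at 3.17, 2.37 and 2.26 CPM in HFD and 17.3, 23.8 and 20.2 CPM in HFD+allantoin. Its log2FC of 2.98 (SE 0.24, adjusted p = 0.00106, edgeR) was the largest of the list. The 4 other target genes had a median log2FC of 0.05, with 2 above 0 and 2 below. Ccnd1 shares 1100 exon bases with LTO1 on the opposite strand, which held 106 to 163 counts per library.

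**Figure D4:**
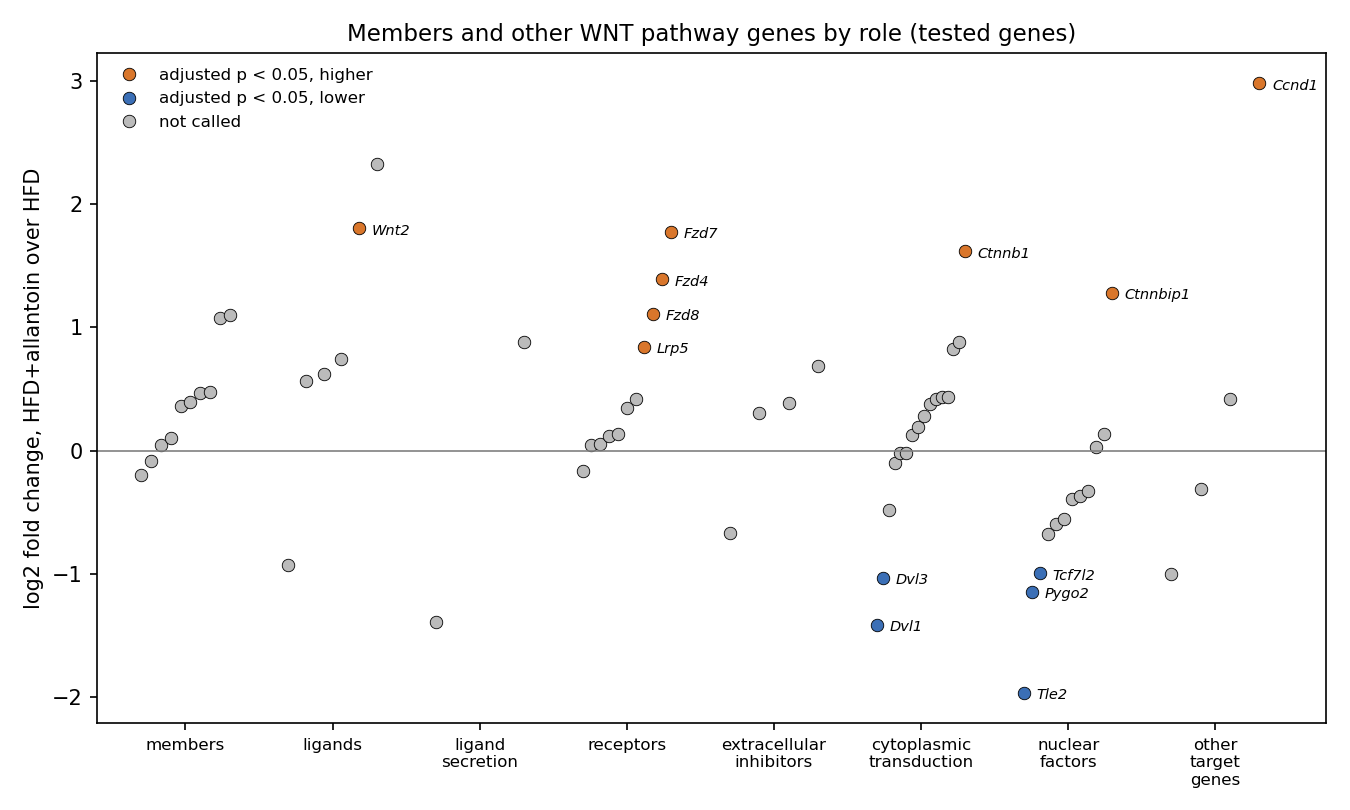
Log2 fold change (HFD+allantoin over HFD) of the members and of the 55 other tested WNT pathway genes, grouped by role, 1 point per gene, coloured by whether the gene was called (adjusted p under 0.05). Receptors hold 4 calls, all higher, nuclear factors hold 3 lower and 1 higher, and none of the members is called.

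Other pericentral hepatocyte genes were read from a list of 22, all of which were tested, with 8 called higher, 1 lower and a median log2FC of 0.44, where 11.3% of all tested genes were called higher and 13.0% lower. All HFD+allantoin libraries lay above HFD in 10 of the 22 and below in 3, against 22.4% and 21.9% of all tested genes. Cyp7a1, the rate-limiting enzyme of bile acid synthesis, was at 31.8, 22.1 and 30.5 CPM in HFD and at 61.1, 151 and 84.1 CPM in HFD+allantoin, a log2FC of 1.81 (SE 0.32, adjusted p = 0.00660, edgeR). Cyp2c29, a drug-metabolising P450, rose from 118 ± 66.4 to 501 ± 111 CPM (SD, n = 3 each), a log2FC of 2.09 (adjusted p = 0.00811). Cyp2a5, another P450, rose from 297 ± 51.8 to 711 ± 151 CPM (SD, n = 3 each), a log2FC of 1.26 (adjusted p = 0.00600), and its near-identical copy Cyp2a4 held 0 to 86 counts. Aldh1a1, Cldn2, Cyp2c50 and Slc13a3 were also called higher, with the call lost in 5, 6, 4 and 7 of the 15 alternatives, and reads of Cyp2c50 may be split with the similar Cyp2c37 and Cyp2c54.

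The 1 gene called lower was Cyp1a2, a P450 of caffeine metabolism and a frequent pericentral marker. It was at 502, 536 and 361 CPM in HFD and at 220, 219 and 332 CPM in HFD+allantoin, a log2FC of -0.86 (SE 0.23, adjusted p = 0.0274, edgeR). Replicate 6 lay just under HFD replicate 3, and the call was lost without any one of 4 libraries and under library-size scaling. The summed level of the 22 genes was 12098, 15980 and 16062 CPM in HFD and 19688, 21997 and 23533 CPM in HFD+allantoin, a ratio of means of 1.48. Cyp2e1, an ethanol-metabolising P450 singled out after its values were seen, made up 45.9% of the sum in HFD and 47.4% in HFD+allantoin and was not called (log2FC 0.61, adjusted p = 0.0632, edgeR). Without it the ratio was 1.44 and the groups still did not overlap. The exact two-sided permutation p was 0.1, the smallest that 3 against 3 can give, and the groups did not overlap. This list and the WNT list were chosen with earlier results of these data known, so their p-values are descriptive only. The 10 members summed to 1147 to 1378 CPM in HFD and 1428 to 1772 CPM in HFD+allantoin, a ratio of means of 1.24 that Glul dominates. Leaving out single libraries gave 4 to 8 pericentral genes called higher. The lowest count, 4, came without HFD replicate 1 and without each of the HFD+allantoin libraries, and there were 5 without HFD replicate 2.

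Periportal hepatocyte genes, the opposite end of the lobule, were read from a list of 21, all tested, with 2 called higher, 3 lower and a median log2FC of 0.03, which is close to the 11.3% and 13.0% called over all tested genes. The gluconeogenic gene Fbp1 was at 114, 323 and 315 CPM in HFD and at 738, 826 and 582 CPM in HFD+allantoin, a log2FC of 1.51 (adjusted p = 0.0181, edgeR). Cps1, the entry enzyme of the urea cycle, rose from 823 ± 257 to 1707 ± 609 CPM (SD, n = 3 each), a log2FC of 1.05 (adjusted p = 0.0385). Arg1, the last enzyme of that cycle, went the other way, from 1352 ± 244 to 805 ± 79.0 CPM (SD, n = 3 each), a log2FC of -0.75 (adjusted p = 0.0239). Apof, an apolipoprotein gene, and Ftcd, a histidine-degrading enzyme, were also called lower (log2FC -0.93 and -0.85, adjusted p = 0.00621 and 0.0190). Of the 15 alternatives, the call was lost in 6 for Cps1, 5 for Arg1, 4 for Ftcd, 2 for Fbp1 and 1 for Apof. The summed level was 8808, 11177 and 9032 CPM in HFD and 9358, 10810 and 7737 CPM in HFD+allantoin, and the exact two-sided permutation p was 0.8. As for the other lists, this p is descriptive only, since the periportal list was also chosen with earlier results known. Without replicate 4 or replicate 5, no periportal gene was called higher and 1 was called lower, without replicate 6 there was 1 of each, and library-size scaling gave 4 higher and 0 lower. The difference between the zones was not itself tested.

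**Figure D5:**
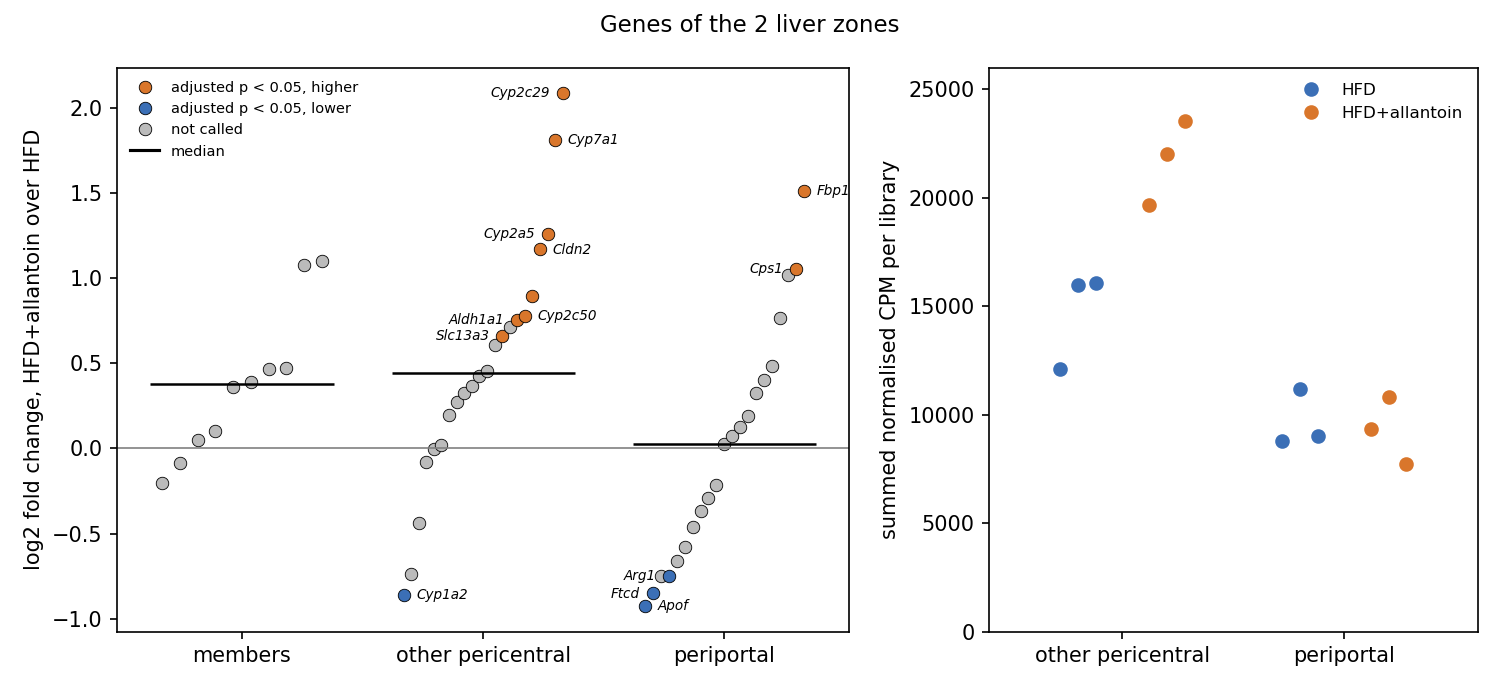
Left, log2 fold change (HFD+allantoin over HFD) of the members, the 22 other pericentral and the 21 periportal genes, 1 point per gene, with the median of each list (0.38, 0.44 and 0.03). Right, summed normalised CPM of the pericentral and periportal lists in each library, where the HFD+allantoin libraries lie above HFD for the pericentral list and overlap it for the periportal list.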

How the data were processed

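The deposited table holds whole-number read counts that the authors obtained for each gene from mouse liver RNA-seq (6 libraries, 3 per group, 1 library per mouse), without normalisation. The aligner and counting tool are not given in the sources used here. Symbols, positions and exon lengths came from GENCODE M21 (GRCm38), which held 54495 of 54532 Ensembl identifiers. Another 429 features had none and were dropped (0.197% to 0.306% of all counts). After filterByExpr and TMM scaling, 12795 genes were fitted with group as the only term by the quasi-likelihood method of edgeR 4.0.16 (R 4.3.3), and p-values were adjusted over all of them by Benjamini-Hochberg. Called means an adjusted p under 0.05. CPM used TMM-scaled library sizes. Near-identical transcripts (at least 95% over 200 bases) were searched with BLAST 2.17.0.

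The members and lists were chosen with earlier results of these data known. Named were all members, per list and direction the 4 called genes with the smallest p (others by name), and 8 pathway genes whatever their result; 1 gene that this selects is not reported here. The 15 alternatives comprised upper-quartile, RLE and library-size scaling, all genes without a filter, a minimum of 10 counts per library, DESeq2 1.42.0, limma-voom (limma 3.58.1), no mitochondrial chromosome, the length and GC trend removed, and leaving out each library. They were applied to the named genes outside the members after seeing the data. The procedure was tested on simulated data, and the outcome is not given here and is not used in any result. No batch or date is given, so an effect of either cannot be told apart from the group.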

Additional observations from a re-analysis of the deposited data

How the results depend on the processing

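With 3 mice per group and under 100 counts for Rspo3, Rhbg and Axin2 in every HFD library, moderate changes of these genes were not detectable. No paired analysis was possible because the groups share no replicate number. Members called higher, 0 as reported, were 4 with library-size scaling, 2 with no filter and with limma-voom, 1 with DESeq2 (Rnf43), and 0 to 1 with single libraries left out. No member was called lower in any of the 15 alternatives. Library-size scaling gave 3162 genes higher and 674 lower over all, 23 and 2 in the WNT list, 13 and 0 in the pericentral list and 4 and 0 in the periportal list, since it raises the median of all genes to 0.38. With no filter there were 8 WNT genes lower, 2 pericentral genes lower and 4 periportal genes higher, and DESeq2 gave 4 periportal genes higher. The causes of these last changes were not tested. Leaving out 1 library gave 460 to 1773 genes higher and 564 to 2008 lower, with the fewest without replicate 5 (596 and 700 without replicate 4, 702 and 832 without replicate 6), 4 to 9 and 3 to 10 in the WNT list, 4 to 8 and 0 to 1 in the pericentral list, and 0 to 3 and 1 to 4 in the periportal list. The log2 fold change turned sign for Lgr5 with library-size scaling (0.34) and without HFD replicate 1 (0.12), replicate 4 (0.13) and replicate 5 (0.04), with -0.47 to 0.13 over the fits without 1 library. It did so for Znrf3 with the length and GC trend removed (-0.064) and without HFD replicate 2 (-0.012) and replicate 6 (-0.018), with -0.018 to 0.28 over those fits, and for Tbx3 without HFD replicate 2 (-0.12), HFD replicate 3 (-0.094) and replicate 5 (-0.054), with -0.12 to 0.42 over them. Lect2 turned with library-size scaling (0.21) and the trend removed (0.094). Apc turned with library-size scaling (0.41), no filter (0.024), DESeq2 (0.013) and without HFD replicate 1 (0.13) or replicate 4 (0.097), with -0.16 to 0.13 over the fits without 1 library, and Lgr4 with the trend removed (-0.15) and without HFD replicate 3 (-0.0084), with -0.0084 to 0.11 over them. Over all 15 alternatives the values ran from -0.47 to 0.34 for Lgr5, -0.064 to 0.50 for Znrf3, -0.12 to 0.50 for Tbx3, -0.51 to 0.21 for Lect2, -0.16 to 0.41 for Apc and -0.15 to 0.48 for Lgr4.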
